A study of Homo sapiens with 4 samples.

Results

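The cytosolic ribosomal protein genes encode the proteins that assemble with ribosomal RNA into the small and the large ribosomal subunit. They were taken by symbol: RPL or RPS followed by a number and at most the suffixes A, X, L or Y with a further digit, together with the acidic stalk genes RPLP0, RPLP1 and RPLP2 and the small subunit gene RPSA. The pattern matched 86 of 17630 genes. With 2 Y-linked rows left out, 84 genes remained, 32 of the small and 52 of the large subunit. Of these, 7 are paralogs of another gene of the family (RPL3L, RPL7L1, RPL10L, RPL22L1, RPL26L1, RPL39L and RPS27L), so that 77 standard genes remained, 31 of the small and 46 of the large subunit. The symbols of FAU, GNB2L1 (also called RACK1) and the paralog RPL36AL, which also encode ribosomal proteins, lie outside the pattern, and these genes are given apart.

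The genes were measured by RNA sequencing in the human embryonic stem cell line H1 on its way to blood, with 1 library per stage. Undifferentiated cells are called hESC here. The APLNR+ fraction of day 2 is MES, the CD31+CD34+ fraction of day 4 is HEP, and the CD31+CD43+ fraction of day 7 is HPC. MES cells had received activin A at 40 ng/ml and BMP4 at 50 ng/ml for 2 days. HEP cells had then received VEGF at 40 ng/ml and bFGF at 50 ng/ml for 2 days, and HPC cells the VEGF and bFGF pair with SB-431542, which blocks signalling by activin receptors, for 3 more days. All 4 libraries come from 1 cell line, no sort is stated for hESC, and a sort therefore cannot be told apart from differentiation in the first comparison. Without replicates no value has an error and no comparison has a test. Differences are log2 differences of (value + 1), and a gene was counted as higher or lower at a difference of at least 1 in size, that is 2-fold, if its value reached 5 in the higher library.

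Ribosomal protein messengers are among the most abundant in growing cells, and the proteins are needed in equal numbers, 1 of nearly each per ribosome. Most of these messengers begin with a terminal oligopyrimidine tract (TOP), a C followed by a run of C and T, through which LARP1 and the mTOR pathway set their translation. Red cell formation is known to be sensitive to their dosage: loss of 1 copy of genes such as RPS19, RPL5, RPL11 or RPS24 causes Diamond-Blackfan anaemia, and loss of 1 copy of RPS14 underlies the anaemia of a myelodysplastic syndrome.

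The start windows below belong to genes named in the results and were chosen after their values were seen; all but that of RPS27L hold the tract. Each window holds 15 bases before and 15 bases from a start listed by RefSeq (build GRCh38.p14, whereas the expression values were made with hg19), written 5′ to 3′ on the gene's strand, with the tract in capitals. RPS24, RPL11 and RPS6 were far lower in HEP than in MES, RPL18, RPL36 and RPS9 slightly higher, RPS19 and RPS14 are the anaemia genes, and the last 4 are paralog pairs.
RPS24, chr10:78033848-78033877, plus strand: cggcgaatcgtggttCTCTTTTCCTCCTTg
RPL11, chr1:23691791-23691820, plus strand: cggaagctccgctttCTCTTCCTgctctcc
RPS6, chr9:19380222-19380251, minus strand: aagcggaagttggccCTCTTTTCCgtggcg
RPL18, chr19:48619164-48619193, minus strand: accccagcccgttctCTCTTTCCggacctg
RPL36, chr19:5690280-5690309, plus strand: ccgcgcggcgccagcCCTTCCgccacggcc
RPS9, chr19:54200843-54200872, plus strand: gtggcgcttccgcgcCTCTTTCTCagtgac
RPS19, chr19:41860240-41860269, plus strand: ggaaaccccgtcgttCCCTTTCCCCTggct
RPS14, chr5:150449725-150449754, minus strand: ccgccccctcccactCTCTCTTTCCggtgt
RPL22, chr1:6199581-6199610, minus strand: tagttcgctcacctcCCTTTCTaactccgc
RPL22L1, chr3:170870181-170870210, minus strand: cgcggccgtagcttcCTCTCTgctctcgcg
RPS27, chr1:153990747-153990776, plus strand: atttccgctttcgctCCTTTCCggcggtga
RPS27L, chr15:63157463-63157492, minus strand: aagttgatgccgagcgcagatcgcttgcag

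A start was listed for 67 of the 84 genes. A tract, defined as a C at the start followed by at least 4 letters that are each C or T, on the gene's strand, was found at a listed start of 47 of these 67 genes (70.1%), against 4.98% of 27238 other genes with a listed start and 7.47% of the 6315 of them expressed at 5 or more in any library. Among standard genes 46 of 62 had it, and among paralogs 1 of 5, RPL22L1. The tract was absent at the listed starts of some genes that were lower in HEP than in MES by the rule (RPL6, RPL17, RPS7 and RPS4X). It was also absent at those of genes that were not (RPL10A, RPL19, RPL3, RPL9 and RPS26, among others). Genes with the tract likewise included some that were lower (RPS24 and RPL11) and some that were not (RPL18 and RPL36). A relation between the tract and these differences was not tested. A match describes these letters only, since a listed start can lie some bases away from the start used in these cells.

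The deposited values summed to between 306724 (HEP) and 426980 (hESC), and their sequencing depth is unknown. The labels were checked against markers. APLNR stood at 0.57 (hESC), 344 (MES), 250 (HEP) and 15.6 (HPC), and SPN, which encodes CD43, at 0.11, 0.08, 0.97 and 24.4 in the same order. PECAM1, which encodes CD31, stayed low in the 2 CD31+ fractions, at 1.83 in HEP and 7.49 in HPC. Both values lay above the 0.01 found in either earlier library. CD34, the other sort marker of HEP, had values of 0.13 (hESC), 1.35 (MES), 43.6 (HEP) and 18.4 (HPC). The endothelial genes CDH5, KDR and ERG also peaked in HEP, at 73.5, 210 and 6.46. All 4 erythroid markers were at 1 or more in HPC, with a sum of 1141 there against 2.86 in HEP, whereas the leukocyte marker PTPRC was at or near 0 in all 4 libraries. GATA1 (41.5) and MYB (17.7) were also highest in HPC, but RUNX1 was at 2.83 in HEP and 2.43 in HPC. POU5F1 was at 1582 (hESC), 568 (MES), 112 (HEP) and 15.4 (HPC), while SOX2 and NANOG were at 0.41 and 10.7 in MES. Of cardiomyocyte markers, MYL7 was highest in MES (69.4) and TNNT2 in hESC (4.78). Of fibroblast and smooth muscle markers, COL3A1 (41.7) and ACTA2 (19.2) were highest in HPC and PDGFRB in MES (8.25). In such bulk libraries, fewer cells of a type and less RNA per cell cannot be told apart.

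Ribosomal protein genes made up 28.7% (hESC), 23.5% (MES), 19.1% (HEP) and 29.8% (HPC) of the summed values. The share was thus lowest in the CD31+CD34+ cells and highest in the CD31+CD43+ cells. Both subunits had the same course: small subunit genes held 12.5%, 10.2%, 8.38% and 13.1% of the sums, and large subunit genes 16.1%, 13.3%, 10.7% and 16.8%. The ratio of the small to the large subunit sum stayed between 0.770 in MES and 0.784 in HEP.

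**Figure D1:**
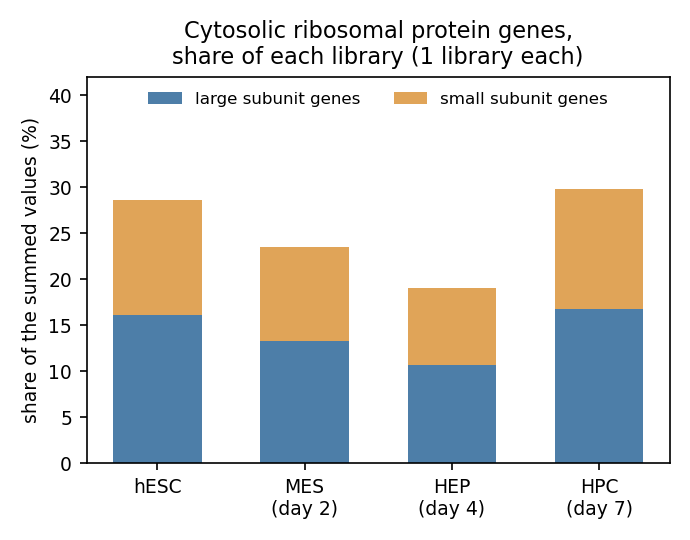
Share of the summed deposited values held by the 84 ribosomal protein genes in each of the 4 libraries, in percent, split by subunit. The bars reach 28.7% (hESC), 23.5% (MES), 19.1% (HEP) and 29.8% (HPC), and the split between subunits is nearly the same in each.

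Single genes differed widely in level within a library. Among the 77 standard genes the median value was 1523 (hESC), 1142 (MES), 568 (HEP) and 1087 (HPC). RPL37A, a small zinc-binding protein of the large subunit, was the highest in every library, at 5460 (hESC), 3797 (MES), 2428 (HEP) and 4667 (HPC). Other genes among the highest were RPL41, RPS18 and RPS27 in hESC, RPL41, RPS18, RPS27 and RPS10 in MES, RPL35, RPL41 and RPS10 in HEP, and RPS18, RPL41, RPL9 and RPL7A in HPC. RPL28 was the lowest, at 17.9 (hESC), 11.1 (MES), 16.2 (HEP) and 17.4 (HPC). Its annotated transcripts have a median length of 670 bases, near the median of 689 bases over all 84 genes. The split between genes is uncertain because processed pseudogenes and near-identical copies can share reads with them, and an order of levels between genes holds only if the deposited measure is per length, which is not stated.

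The 100 highest genes of each library included 60 (hESC), 50 (MES), 35 (HEP) and 53 (HPC) ribosomal protein genes. The spread between the genes was also widest in HEP: the interquartile range of the log2 values of the 77 standard genes was 1.36 (hESC), 1.18 (MES), 1.92 (HEP) and 1.42 (HPC). Only RPL3L and RPL10L, paralogs known from striated muscle and testis, were below 1 in every library, which left 82 genes for the comparisons. Over the 4 libraries, 60 of these 82 had their lowest value in HEP, 21 in MES and 1, RPL39L, in HPC. Of all 8174 genes that reached 5 in any library, 38.9% had theirs in HEP, 15.3% in MES and 26.3% in HPC. The highest value was in hESC for 52, in HPC for 29 and in MES for 1, RPL7L1. Of the 8174 genes, 3707 were highest in hESC, 1234 in HPC and 1724 in MES. After removal of the GC trend, which is described with the second step, 57 of the 82 were lowest in HEP (21.3% of all genes) and 1 in HPC (25.6% of all genes). The highest value was then in HPC for 53 of the 82 and in hESC for 28, and the matching share over all genes was not computed.

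**Figure D2:**
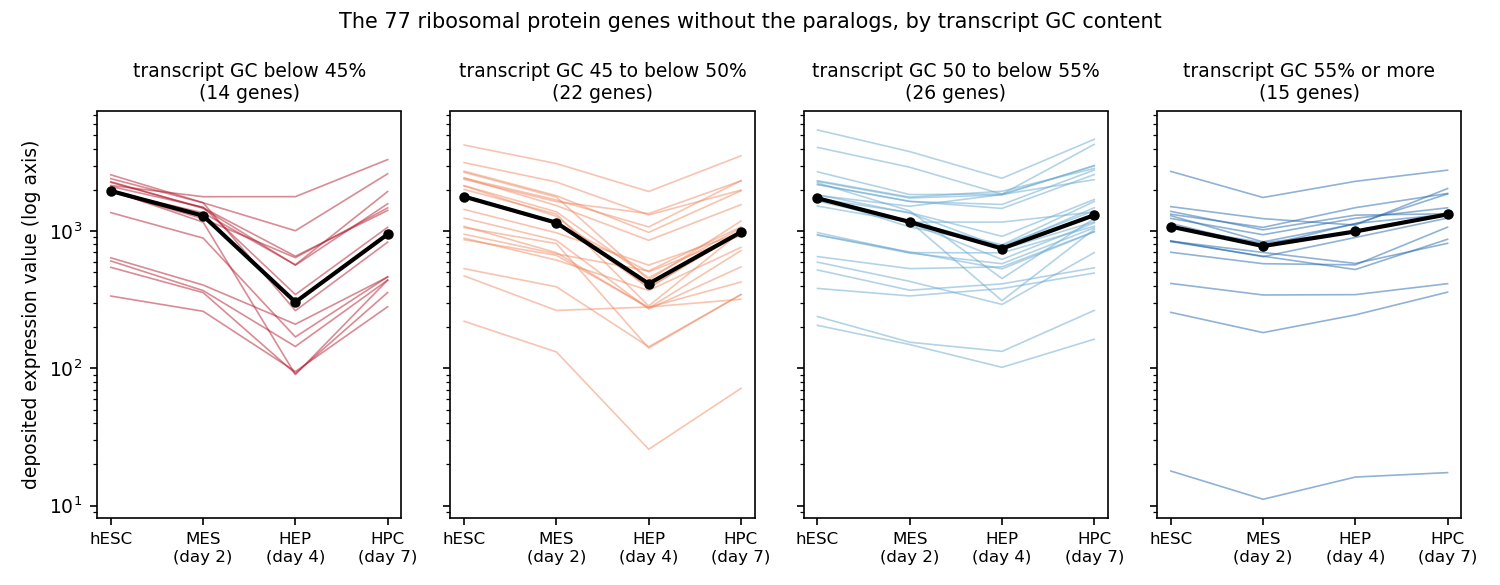
Deposited value (log axis) of each of the 77 standard ribosomal protein genes in the 4 libraries, in 4 panels by the GC content of their transcripts; thin lines are genes and the black line is their median. The dip in HEP is deepest in the panels under 50% GC. It is missing from the median line of the panel at 55% or more, though single genes there, RPLP2 and RPS19 among them, were lowest in HEP.

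The first step, MES against hESC, showed slightly lower values for nearly the whole family. Of 82 genes, 81 had a lower value in MES, as had 62.3% of all genes tested. The median log2 difference of the 82 was -0.52, against -0.21 over all 7458 genes tested. The genes moved by similar amounts, with an interquartile range of 0.22 against 0.87 over all genes. The rule of size was passed by 1 gene, RPL22L1, which stood at 49.8 in MES, against 108 in hESC (-1.10); 8.76% of all genes passed it in that direction. No ribosomal protein gene was higher by the rule, against 8.97% of all genes. After that removal, 0 were lower, against 5.87% of all genes.

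The lowest differences after RPL22L1 were those of RPS26 (264.6 in MES, against 472 in hESC), RPS24, RPL22 and RPL23, at -0.83, -0.76, -0.74 and -0.74. RPS26 lies at the messenger exit channel of the small subunit. At the other end RPL7L1, a paralog of RPL7, was the single gene with a higher value in MES, at 22.6 against 15.7 in hESC (0.50). RPL10, RPL26L1, RPLP0 and RPLP2 followed, at -0.18, -0.21, -0.26 and -0.27. The median lay 0.31 below that of all genes as deposited, and between 0.30 and 0.31 below it with other scalings and with the GC trend removed. A scaling that divides a library by a single factor shifts both medians largely alike, so it could change this gap little.

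The second step, HEP against MES, split the family. By the rule, 28 of 82 genes were lower in HEP and 0 higher, with a median log2 difference of -0.65. Over all 7225 genes tested, 33.9% were lower and 8.08% higher, with a median of -0.39, so the share of 34.1% of ribosomal protein genes lay next to the background. The differences ran from -3.67 to 0.55, with an interquartile range of 1.37 against 0.22 in the first step. The lower genes included both subunits, 10 small and 18 large.

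RPS24, a small subunit protein needed for processing of the small subunit's RNA, had the lowest difference: it stood at 90.3 in HEP, against 1163 in MES. RPL7 was at 264 in HEP, against 1611 in MES (-2.61), and RPL6 at 141 in HEP, against 812 in MES (-2.52). RPS27A, made as a fusion with ubiquitin, was at 169.6 in HEP, against 891 in MES (-2.39). With the paralog RPS27L (-2.49) these were the 5 lowest. Among the other standard genes RPL22 (-2.31), RPL11 (-2.22), RPL21 (-2.11) and RPS6 came next: RPL11 stood at 285 in HEP, against 1331 in MES, and RPS6, the substrate of the S6 kinases, at 441 in HEP, against 1770.0 in MES.

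Other genes of the family were as high in HEP as in MES or higher. Among the most positive differences, none past the rule, were those of RPL28 (0.50), RPS2 (0.48), RPL18 (0.46) and RPL36 (0.43). RPL18 stood at 899.5 in HEP, against 652 in MES, and RPL36 at 1129 in HEP, against 836 in MES. The stalk genes, whose products bind elongation factors, were also close: RPLP0 at 1851 in HEP, against 1519 in MES, RPLP1 at 549.6 in HEP, against 534 in MES, and RPLP2 at 582 in HEP, against 700.2 in MES.

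The position of a gene in this range followed the GC content of its transcripts. Across the 82 genes the Spearman rho of the difference with GC content was 0.79, against 0.71 across 7112 other genes; all genes of a pair of libraries share those libraries and their base composition, so these are descriptions. In the 16 ribosomal protein genes with GC content below 45% the median difference was -1.41 and 12 were lower by the rule, and in other genes of that band it was -1.63. From 45% to below 50% the medians were -1.23 (24 genes, 14 lower) and -0.76. From 50% to below 55% they were -0.41 (27 genes, 2 lower) and -0.12, and at 55% or more they were 0.39 (15 genes, 0 lower) and 0.34. Among other genes, 1551 of 1961 were lower by the rule below 45%, and 518 of 1324 from 45% to below 50%. From 50% to below 55% it was 178 of 1198, and at 55% or more 162 of 2629. The rho with transcript length was -0.080.

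When the GC trend of each library, fitted on genes other than these, was divided out, 11 ribosomal protein genes were lower in HEP and 1 higher, against 10.5% and 10.9% of all genes. The median was then -0.27, and the rho with GC content 0.23. The 11 were RPS24 (-2.45), RPL6 (-2.11), RPL22 (-1.77), RPS25 (-1.73), RPL11 (-1.66), RPS12 (-1.44), RPL7 (-1.32), RPS27A (-1.24), RPS7 (-1.12), RPL14 (-1.07) and RPL21 (-1.04). RPL9, which shares the low GC content of RPS24 (42.7% and 44.1%), was the 1 higher gene (1.48). As deposited, RPL9 stood at 1784 in HEP, against 1783 in MES. The counts also moved with a scaling that shifts all genes alike: with median-of-ratios scaling 17 ribosomal protein genes were lower and 5 higher, beside 1445 lower and 1456 higher over all genes. The median of the family lay 0.26 below that of all genes as deposited, and between 0.26 and 0.34 below it under the 5 other scalings. Only removal of the GC trend does not shift all genes alike, and the gap was then 0.26.

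**Figure D3:**
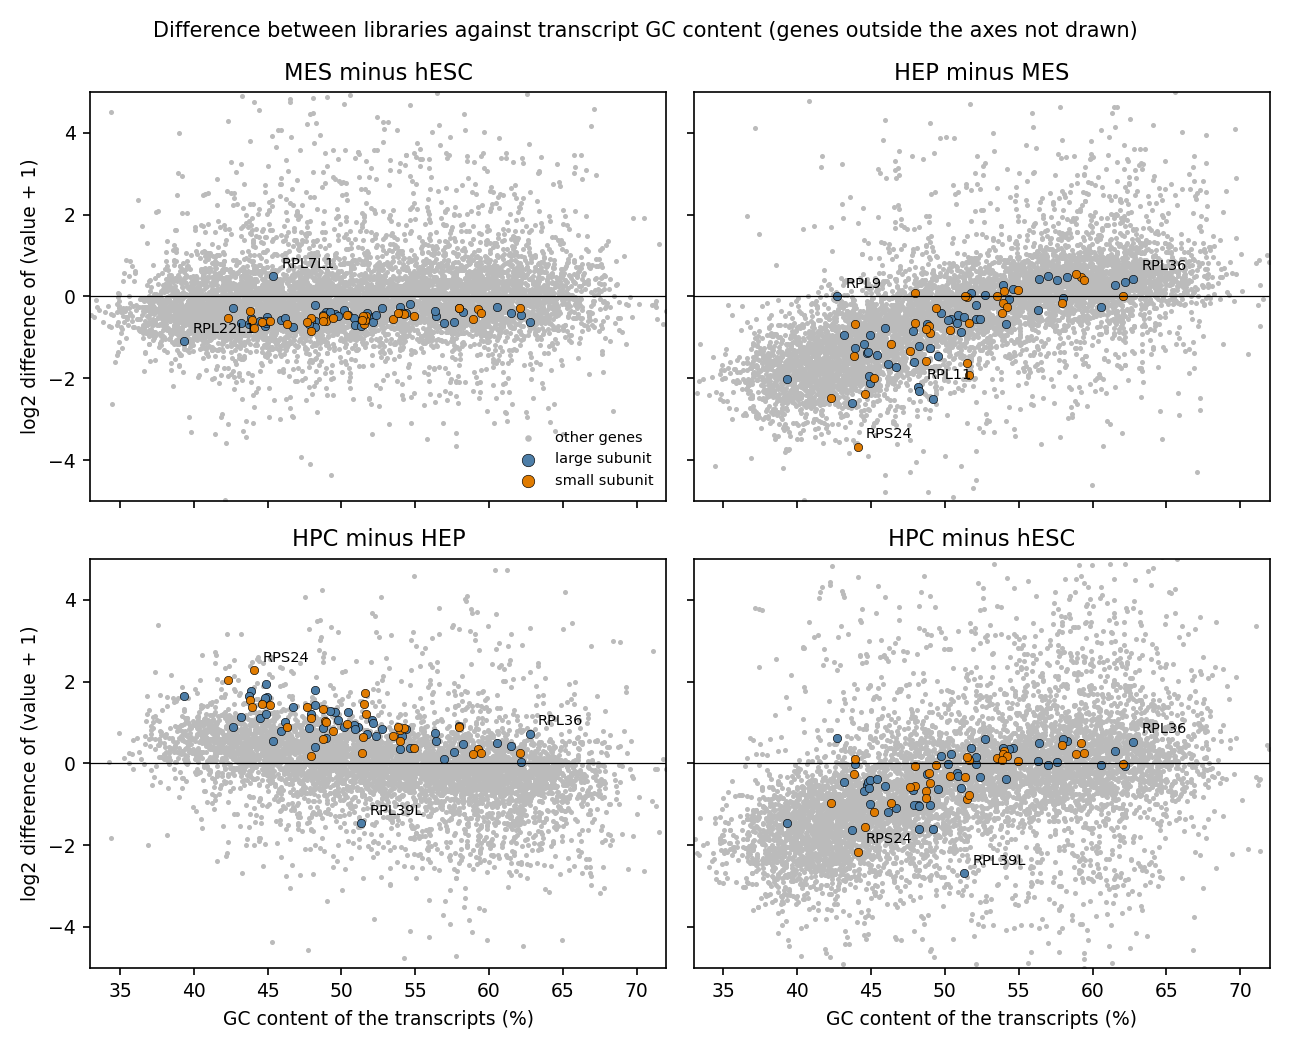
Log2 difference of (value + 1) between libraries against the GC content of the transcripts, in percent, for the ribosomal protein genes by subunit and for other genes at 5 or more in the higher library (grey). From MES to HEP the ribosomal protein genes lie along the slope of the other genes (rho 0.79 and 0.71). From HEP to HPC 81 of 82 lie above 0, against 51.4% of all genes.

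The third step, HPC against HEP, showed higher values for nearly the whole family. By the rule, 34 of 82 genes were higher in HPC and 1 was lower, whereas 8.99% of all 5894 genes tested were higher and 10.7% lower. A higher value in HPC was found for 81 of 82 genes, and for all 77 standard genes, against 51.4% of all genes. The family's median log2 difference was 0.89, against 0.02 over all genes. Both subunits took part, with medians of 0.89 each and 14 small and 20 large subunit genes past the rule.

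RPS24 again had the largest difference, at 439.9 in HPC, against 90.3 in HEP (2.27). RPS27L (2.04) came next, followed by RPL36A, at 357 in HPC, against 91.9 in HEP (1.95), RPL11, at 991 in HPC, against 285 in HEP (1.79), and RPL39, which lines the peptide exit tunnel, at 1945 in HPC, against 569 in HEP (1.77). These genes had been among those low in HEP. Both steps share the 1 HEP library, so a low value there lowers the difference from MES and raises the difference to HPC. The same holds for the relation with GC content. The smallest differences among standard genes were those of RPL8 (1339 in HPC, against 1308 in HEP), RPL28 (0.10) and RPS26 (0.19). RPL39L was the 1 lower gene.

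The differences again ran with GC content, now with a rho of -0.70 against -0.39 across 5788 other genes, but the family's median was higher than that of other genes in each GC band. Below 45% the medians were 1.58 for ribosomal protein genes and 0.49 for other genes. They were 1.03 and 0.24 from 45% to below 50%, 0.84 and -0.0036 from 50% to below 55%, and 0.41 and -0.23 in the band from 55% upwards. When the GC trend was removed, 30 genes were higher and 1 lower, against 6.84% and 9.05% of all genes, and the median was 0.88. RPS19, RPL29 and RPL36, rich in GC, were then past the rule, at 1.09, 1.12 and 1.01. The family's median lay 0.86 above that of all genes as deposited, and between 0.85 and 0.87 above it under the 5 other scalings. Those that shift all genes alike could change this gap little, and with the GC trend removed it was 0.85. The erythroid markers were higher in the same library, as given above, and their part in this result was not tested. Set against MES in place of HEP, which leaves out the library with the lowest family sum, HPC had 1 gene higher, RPL36, and 3 lower, RPL39L, RPS24 and RPL6, with a median of 0.27. Over all 7325 genes of that comparison 9.91% were higher and 31.9% lower, with a median of -0.40.

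**Figure D4:**
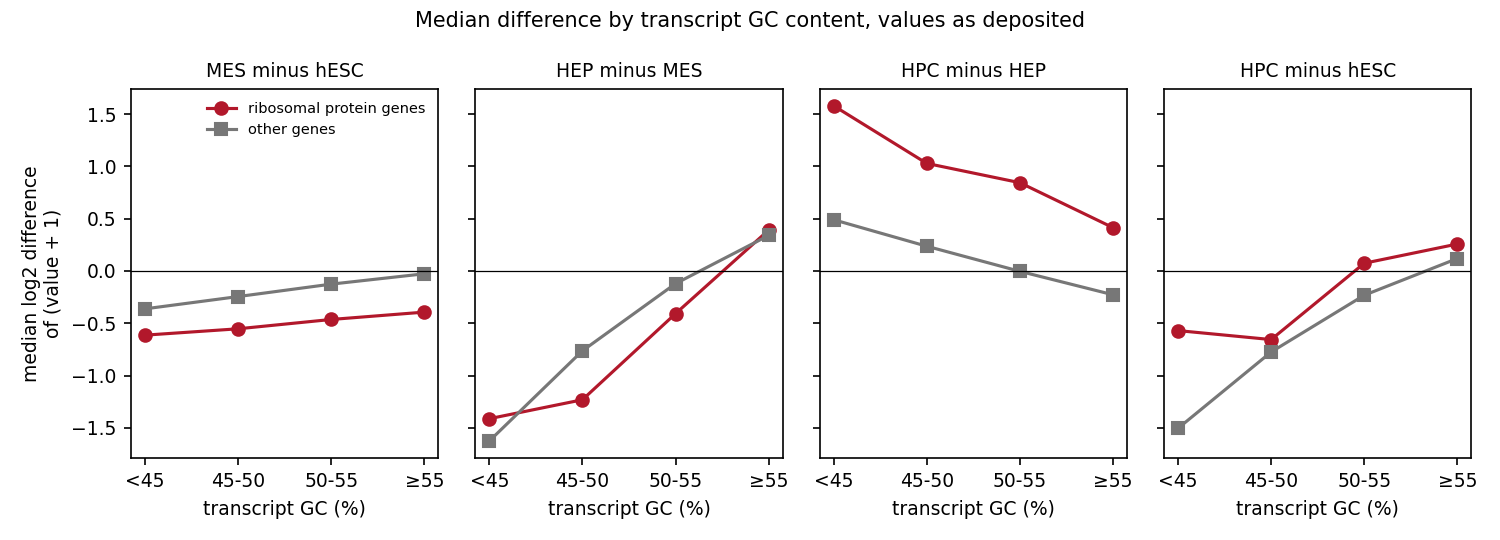
Median log2 difference of (value + 1) in 4 bands of transcript GC content, in percent, for ribosomal protein genes (circles) and other genes (squares) in each comparison. From HEP to HPC the ribosomal protein medians are 1.58, 1.03, 0.84 and 0.41 from low to high GC, above the other genes in each band.

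Over the whole course, HPC against hESC, the family's median difference as deposited was smaller in size than that of all genes. By the rule 0 of 82 genes were higher and 14 lower in HPC (17.1%), against 11.1% and 37.4% of all 7437 genes tested, and the medians were -0.26 and -0.57. The lowest were RPL39L (-2.69), RPS24 (-2.16), RPL7 (-1.63), RPL6 (-1.62) and RPL22 (-1.61). RPS24 stood at 439.9 in HPC, against 1972 in hESC, and RPL6 at 346 in HPC, against 1063 in hESC. The most positive were RPL9, at 3322 in HPC, against 2153 in hESC (0.63), RPL29 (0.61), RPLP1 (0.60), RPL18 (0.55) and RPL36 (0.53).

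The sign of that median turned with the scaling; the same scalings moved the median of the genes tested as deposited by 0.25 to 0.59. After removal of the GC trend, it was 0.17, with 3 genes higher, RPL9 (2.03), RPS3A (1.30) and RPL39 (1.18), and 2 lower, RPL39L (-2.37) and RPL6 (-1.10), against 18.1% and 14.9% of all genes. Relative to all genes, the family's median was 0.31 higher as deposited and 0.12 to 0.28 higher under the 5 other scalings. Here too, scalings that shift all genes alike could change this gap little. With the GC trend removed it was 0.12.

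Shares within the family do not depend on scaling between libraries. RPS24 held a share of 1.61% (hESC), 1.36% (MES), 0.154% (HEP) and 0.418% (HPC) of the family's sum. RPL9 made up 1.76%, 2.09%, 3.05% and 3.16%, and RPL36 1.06%, 0.977%, 1.93% and 1.78%. RPL7 made up 2.10%, 1.88%, 0.451% and 0.790%. RPS24 and RPL7 thus held smaller shares in HEP and HPC than in the 2 earlier libraries, and RPL9 and RPL36 larger ones. Corrected for the GC trend, the shares were 1.19%, 1.08%, 0.232% and 0.499% for RPS24, 1.51%, 1.48%, 0.692% and 0.963% for RPL7, and 1.18%, 1.55%, 5.05% and 4.07% for RPL9. RPL36 then held 1.47%, 1.18%, 1.38% and 1.56%, so its share in HEP was then below that in hESC.

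Some paralogs can replace their parent protein in the ribosome, and RPL22 and RPL22L1 are known in zebrafish for opposite roles in the emergence of blood stem cells. RPL22 stood at 221 (hESC), 132 (MES), 25.8 (HEP) and 71.6 (HPC), and RPL22L1 at 108, 49.8, 11.6 and 38.9. Both were lowest in HEP, and RPL22L1 stayed at 37.8% to 54.3% of RPL22 within a library as deposited. RPL22L1 has the lowest GC content of the family (39.3%). Without the GC trend it was at 29.1% (hESC), 25.4% (MES), 81.9% (HEP) and 75.2% (HPC), so the ratio depends on that choice.

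RPL39L, a paralog of RPL39 known from mouse testis, was the single gene of the 82 with its lowest value in HPC. It stood at 74.97 (hESC), 44.9 (MES), 31.5 (HEP) and 10.8 (HPC), while RPL39 stood at 1954, 1359, 569 and 1945. The paralog was lowest in the library in which its parent was near its hESC level. Its value was 3.84% of that of RPL39 (hESC), 3.31% (MES), 5.54% (HEP) and 0.556% (HPC). Without the GC trend the ratio was 5.57%, 4.40%, 3.61% and 0.445%, lowest in HPC again but no longer highest in HEP. Its differences of -1.46 against HEP and -2.69 against hESC were -1.52 and -2.37 with the GC trend removed.

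RPS27L, a target of p53 in stress responses, stood at 98.9 (hESC), 68.8 (MES), 11.4 (HEP) and 50.0 (HPC), that is 3.14%, 3.02%, 0.868% and 2.51% of RPS27. Its value was lowest in HEP. Without the GC trend the ratio was 2.12%, 2.24%, 1.42% and 3.23%, and thus highest in HPC. RPL26L1 stood at 34.7, 29.8, 12.3 and 16.5, and RPL7L1 at 15.7, 22.6, 7.69 and 11.7. RPL36AL, outside the pattern, stood at 359 (hESC), 225 (MES), 24.9 (HEP) and 53.9 (HPC), which was 65.8%, 63.1%, 27.1% and 15.1% of RPL36A. Without the GC trend it was at 56.0%, 55.7%, 32.9% and 17.2%. Of the 8 parent genes, 5 were lower in HEP than in MES (33.9% of all genes) and 5 higher in HPC than in HEP (8.99% of all genes). Once the GC trend was removed, these counts were 2 (10.5% of all genes) and 5 (6.84% of all genes). Of 6 expressed paralogs, RPL36AL among them, 5 were lower in HEP than in MES, and 3 were higher and 1 lower in HPC than in HEP. With the GC trend removed, RPL36AL alone of the 6 was lower in HEP, and 2 were higher and 1 lower in HPC.

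**Figure D5:**
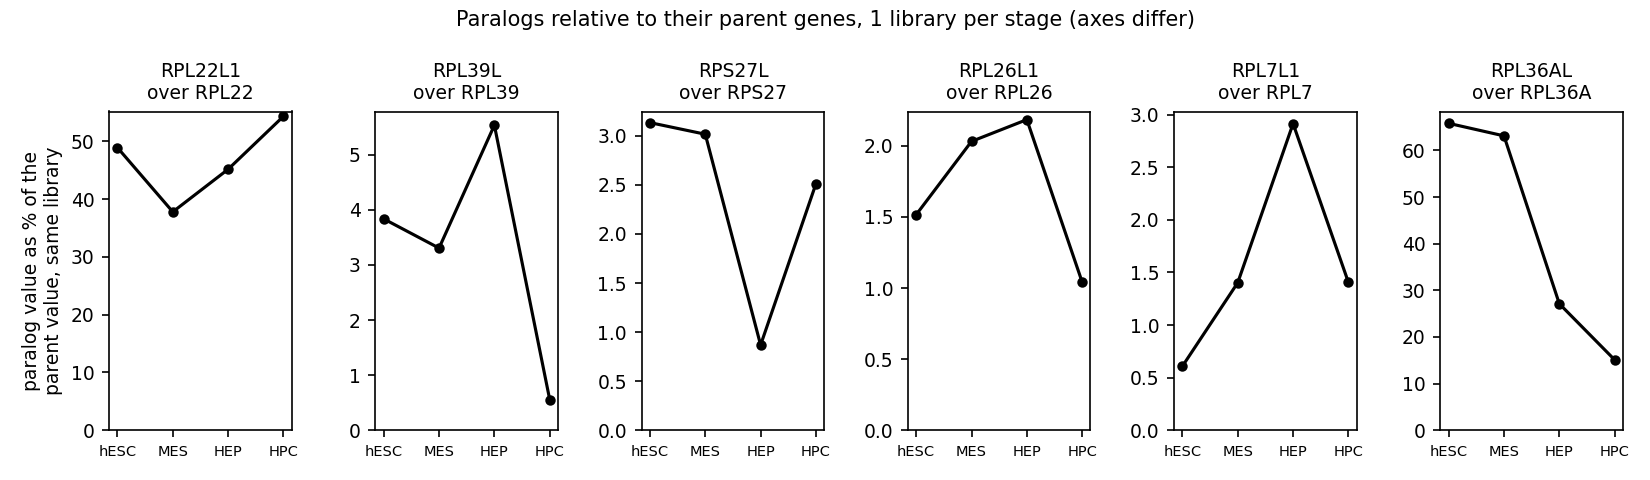
Deposited value of each paralog as a percentage of the deposited value of its parent gene in the same library, for the 4 libraries in order of stage. RPL39L is at 0.556% of RPL39 in HPC and RPL36AL to 15.1% of RPL36A, whereas RPL22L1 stays between 37.8% and 54.3% of RPL22.

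Genes of Diamond-Blackfan anaemia numbered 19 in the family. In HEP 6 of them were lower than in MES (RPL5, RPL11, RPL26, RPL31, RPS7 and RPS24) and 0 higher, with a median of -0.65, where 33.9% of all genes were lower. In HPC 10 were higher than in HEP (among them the same 6, RPL27, RPL35A and RPS15A) and 0 lower, with a median of 1.01, where 8.99% of all genes were higher. Over the whole family the counts were 28 and 34 of 82. Corrected for the GC trend, 3 of the 19 were lower in HEP (10.5% of all genes) and 6 higher in HPC (6.84% of all genes). RPS19, the gene most often mutated in the disease, stood at 1509 (hESC), 1234 (MES), 1107 (HEP) and 2045 (HPC), and was thus highest in HPC, with a difference of 0.88 against HEP. RPS14 stood at 2189, 1649, 1465 and 2585 in the same order.

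RPL5 and RPL11 form a particle with the 5S RNA that restrains MDM2 when ribosome assembly is disturbed. RPL5 stood at 1245 (hESC), 856 (MES), 271 (HEP) and 549 (HPC), and RPL11 at 2014, 1331, 285 and 991. Both were lower in HEP than in MES and higher in HPC than in HEP by the rule. Without the GC trend, RPL11 passed in both steps (-1.66 and 1.68) and RPL5 in neither (-0.75 and 0.77).

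Outside the pattern, FAU, fused to a ubiquitin-like protein, stood at 467 (hESC), 347 (MES), 433 (HEP) and 672 (HPC), and GNB2L1, the signalling scaffold of the small subunit, at 1728, 1247, 1032 and 1839. Both were highest in HPC and neither passed the rule between successive stages. Translation factors, most of them with TOP messengers too, had 9 of 15 genes lower in HEP than in MES (median -1.07) and 4 higher in HPC than in HEP (median 0.76), with 0 of 15 past the rule in the first step. Over all genes 33.9% were lower in HEP (median -0.39) and 8.99% higher in HPC (median 0.02). Among the factors, EIF3E, a subunit of initiation factor eIF3, was at 23.8 in HEP, against 216 in MES, NAP1L1, a histone chaperone counted on this list for its TOP messenger, at 21.4 in HEP, against 119 in MES, and NACA, which binds nascent chains, at 74.8 in HEP, against 395 in MES. EEF1A1, which brings tRNA to the ribosome, was at 4016 in HPC, against 1492 in HEP. Once the GC trend was removed, 2 factors were lower in HEP (10.5% of all genes) and 2 higher in HPC (6.84% of all genes).

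Ribosome biogenesis factors, which process ribosomal RNA and assemble the subunits, had 1 of 38 genes tested higher in HPC than in HEP, NPM1, and 0 lower. Over all genes 8.99% were higher and 10.7% lower. The median of the factors was 0.31, against 0.02 over all genes. A higher value in HPC was found for 28 of the 38, against 51.4% of all genes. The step before had 20 of 46 lower and 0 higher in HEP than in MES (median -0.86), where 33.9% of all genes were lower. After removal of the GC trend, 7 were lower and 1 higher, against 10.5% and 10.9% of all genes. The largest differences were those of NPM1, at 108 in HEP, against 942 in MES, NOP58, at 2.69 in HEP, against 28.6 in MES, and BRIX1, at 3.46 in HEP, against 32.7 in MES. Against hESC, 25 of 48 factors were lower in HPC and 0 higher (median -1.05), where 37.4% of all genes were lower. With the GC trend removed 12 of 46 were lower (14.9% of all genes) and 0 higher (median -0.58). The difference between these factors and the ribosomal protein genes was not tested.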

How the data were processed

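Libraries were built from 2 ug of Trizol-extracted total RNA with a TruSeq kit, per the labels' protocols. The authors deposited 1 table per library, with a normalised signal for each gene to 2 decimals. BWA, Bowtie and RSEM were used with hg19, per the submitters' processing notes. The sources used here do not state their roles or versions, the annotation, strandedness or the exact RSEM measure. Depth is therefore unknown, and counting intervals cannot be given. Each table had 17634 rows; 4 with a repeated name were left out.

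The genes and lists were chosen with earlier results of these data known. Named genes were the 5 highest of each library, the 5 most positive and most negative of each comparison, and the fixed lists (stalk, 5S particle, paralogs and parents, Diamond-Blackfan anaemia, RPS14); RPS24, RPL7, RPL9 and RPL36 in the account of composition, genes near the extremes and the printed windows were chosen after their values were seen, as were the GC bands. A few genes that the rule names are not reported here.

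For GC content and length, the median of a gene's protein-coding transcripts in GENCODE 29 was taken, which gave values for 17426 genes (98.8%) and all 84 ribosomal protein genes. The GC trend was the median log2 deviation in 50 GC bins, averaged over 5 neighbouring bins. The procedure was tested on simulated data. Python 3.11.15, pandas 2.3.3 and scipy 1.17.1 were used. The alternatives are given below.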

Additional observations from a re-analysis of the deposited data

How the results depend on the processing

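With no replicates, a median was taken to have moved at more than 0.25 on the log2 scale, a rho at more than 0.1, a share at more than 1.5 percentage points and a count at more than 1.5 times. Of 188 alternative values 140 stayed within these limits, 38 moved and 10 changed sign. A rho depends on ranks, so dividing a library by a single factor leaves it nearly unchanged. Such values are among the 140, which therefore do not measure stability. No replicate could be left out. No paired analysis was possible because each group is 1 library. The cause of the moves was not tested. For MES against hESC the 1 lower gene was lost (0 lower) with a fold of 4, either common total, the GC trend removed or the paralogs left out, and the rho was -0.13 with the GC trend removed and 0.11 with length in place of GC content. For HEP against MES 10 genes were lower at a fold of 4, 17 lower and 5 higher with median-of-ratios scaling over genes above 0 in every library (median -0.079), 17 and 2 with upper quartile scaling (median -0.12), and 11 and 1 with the GC trend removed (median -0.27, rho 0.23); with length the rho was -0.080. For HPC against HEP 2 were higher and 0 lower at a fold of 4, 0 were lower without the paralogs, and the rho was -0.43 with the GC trend removed and -0.016 with length. With MES in place of HEP, added after the data were seen, 1 was higher and 3 lower (median 0.27, rho 0.61). For HPC against hESC 2 were lower at a fold of 4, 9 higher and 5 lower with median-of-ratios scaling (median 0.36), 8 and 5 with upper quartile scaling (median 0.31), 7 lower with a common total (median 0.017) or a common total of the other genes (median 0.041), and 3 and 2 with the GC trend removed (median 0.17, rho -0.094); with length the rho was -0.11. Without 79 mitochondrial, histone cluster and globin genes the shares were 31.7% (hESC), 27.4% (MES), 23.4% (HEP) and 35.8% (HPC), in the same order of size.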

Other observations

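Targets of p53, which ribosomal stress is known to activate through RPL5 and RPL11, were described by the same rule. Of 15 tested, 3 were higher in MES than in hESC (CDKN1A, GDF15 and BTG2) and 0 lower, with a median of 0.04, where 8.97% of all genes were higher. In HEP 1 was higher than in MES (FDXR) and 3 were lower (CCNG1, MDM2 and RPS27L), with a median of -0.29, where 33.9% of all genes were lower. Without the GC trend, 1 of 16 was higher (FDXR) and 2 were lower (CCNG1 and GDF15), against 10.9% and 10.5% of all genes. MDM2 (-0.30) and RPS27L (-0.96) then no longer passed. In HPC 5 were higher than in HEP (CDKN1A, GDF15, CCNG1, SESN1 and RPS27L) and 0 lower, with a median of 0.65, where 8.99% of all genes were higher. Once the GC trend was removed, 3 were higher (CDKN1A, GDF15 and RPS27L), where 6.84% of all genes were. CDKN1A, an inhibitor of the cell cycle, stood at 4.73 (hESC), 25.2 (MES), 28.8 (HEP) and 77.5 (HPC), and GDF15, a secreted stress factor, at 2.18, 18.8, 9.35 and 36.7. MDM2, the ligase that degrades p53, stood at 13.9, 19.8, 4.21 and 8.98.

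Regulators of TOP messengers had 0 of 8 genes past the rule in MES against hESC, where 8.97% of all genes were higher and 8.76% lower. In HEP against MES 3 of 8 were lower, near the 33.9% of all genes. With the GC trend removed 1 was lower and 1 higher of 9, against 10.5% and 10.9% of all genes. In HPC against HEP 0 of 6 passed the rule, where 8.99% of all genes were higher and 10.7% lower. LARP1, which binds the tract, stood at 13.8 (hESC), 18.8 (MES), 10.6 (HEP) and 13.6 (HPC), and MTOR at 17.9, 18.9, 15.9 and 16.9. EIF4E, the cap-binding factor, stood at 42.1, 23.2, 2.83 and 4.65. Of 7 chaperones of single ribosomal proteins, 2 were lower in HEP than in MES, where 33.9% of all genes were. They were BCCIP (2.34 in HEP, against 32.9 in MES) and NAP1L1 (21.4 in HEP, against 119 in MES). In HPC 1 was higher than in HEP, BCCIP (6.30 in HPC), where 8.99% of all genes were. After removal of the GC trend, BCCIP alone was lower in HEP (NAP1L1 at -0.51), where 10.5% of all genes were. In HPC 0 were then higher (BCCIP at 0.66), where 6.84% of all genes were.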
